A study of Rattus norvegicus with 8 samples.

Results

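The phosphate transport genes of the kidney are described here: the sodium-phosphate cotransporters Slc34a1, Slc34a2, Slc34a3, Slc20a1 and Slc20a2, the phosphate exporter Xpr1, and the scaffold proteins Pdzk1 and Nherf1. Every probe set whose platform annotation gave exactly 1 of these symbols, and no other, was taken. This gave 11 probe sets for the 8 genes, of 31099 probe sets on the array. Slc34a1, Slc20a2 and Nherf1 had 2 probe sets each, and the others had 1. They are described separately, because different probe sets of a gene can detect different parts of it.

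The arrays held kidney RNA of male Wistar rats aged 8 weeks. The HP group (4 arrays) had eaten a diet with 1.2% phosphorus for 24 days, and the control group (4 arrays) an AIN-93G diet with 0.3% phosphorus for the same time. Each array held RNA of 1 rat. The authors had chosen for the arrays rats that were average for their group, which can make the spread between arrays smaller than that between unselected rats. The HP diet carried its added phosphorus as KH2PO4 in place of corn starch, so phosphorus and potassium rose together and cannot be told apart. Both groups were otherwise untreated animals of the same strain and sex.

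The kidney returns most filtered phosphate to the blood, and this takes place in the proximal tubule. Slc34a1 (NaPi-IIa) and Slc34a3 (NaPi-IIc) carry phosphate together with sodium across the brush border membrane of these cells, and both are known to be reduced when dietary phosphate, parathyroid hormone or FGF23 is high. Slc34a2 (NaPi-IIb) is the family member best known from the intestine, where it takes up dietary phosphate. The Slc20 proteins (PiT-1 and PiT-2) are widely expressed carriers of the other cotransporter family, Xpr1 is the only known cellular phosphate exporter of mammals, and Pdzk1 and Nherf1 are PDZ domain proteins that hold Slc34a1 in the brush border. In bulk tissue, fewer cells of a type and less RNA per cell cannot be told apart.

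Values had been deposited as logarithms, whose base is not stated and was taken to be 2. The authors summarized the probes with the distribution free weighted method (DFW), which rescales each probe set by its own spread over the arrays. The median SD within diets was 2.22 millionths of a log unit over all probe sets tested. Differences between arrays are thus no fold changes, nor can their sizes be ranked across probe sets. Values are given below as the distance of each array from the control mean. Differences are HP minus control, with their SE from the spread within diets, and are also given as standardized differences, that is, divided by the pooled SD within diets. Adjusted p values are those of limma with the Benjamini-Hochberg adjustment over 31042 probe sets, and 4 arrays per diet limit their precision.

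Slc34a2 rose in the HP group, and it was the only 1 of the 11 probe sets to pass at an adjusted p under 0.05. The background in that direction was 2.95% of all probe sets tested. None of the 11 passed in the lower direction, where the background was 1.13%. At an unadjusted p under 0.05 there were 6 of 11, with a background of 19.0%. Of these, 2 were higher (Slc34a2 and Slc20a1), with a background of 9.53%, and 4 were lower (1370610_at of Slc34a1, Slc34a3, Xpr1 and Pdzk1), with a background of 9.45%. The standardized difference was above 0 for 3 probe sets and below 0 for 8, with a median of -0.97, against a median of -0.21 over all probe sets tested, of which 13144 were above 0 and 17898 below.

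**Figure D1:**
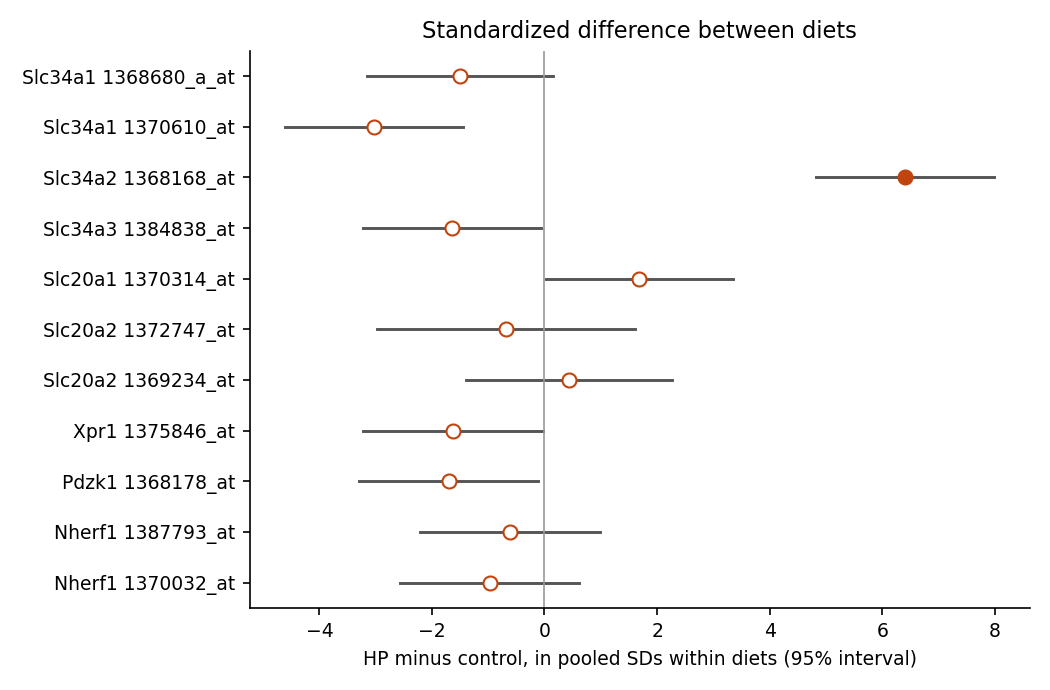
Standardized difference between the HP and the control group (HP minus control, in pooled SDs within diets) for each of the 11 probe sets. Lines are the 95% interval of the difference by limma in the same units, which takes the SD as known. The filled point (Slc34a2, 6.41) passed at an adjusted p under 0.05; the open points did not.

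The 3 members of the Slc34 family lie on different chromosomes, and the sequence ahead of their starts is shown because the difference in Slc34a2 had the opposite sign to that of its relatives. RefSeq promoter windows of the build GRCr8 were found for 6 of the 8 genes. The 250 bases before the annotated start were searched on both strands for 5 motifs: the TATA box TATAAA, the GC box GGGCGG, the E-box CACGTG, the half-site GTTAAT of the HNF1 factors and the HNF4 motif CAAAGTCCA. Matches are in capitals, and the last base printed lies just before the start. The windows are chr14:62143073-62143322 (minus strand) for Slc34a2, chr17:9238984-9239233 (minus strand) for Slc34a1 and chr3:28447998-28448247 (minus strand) for Slc34a3.
Slc34a2: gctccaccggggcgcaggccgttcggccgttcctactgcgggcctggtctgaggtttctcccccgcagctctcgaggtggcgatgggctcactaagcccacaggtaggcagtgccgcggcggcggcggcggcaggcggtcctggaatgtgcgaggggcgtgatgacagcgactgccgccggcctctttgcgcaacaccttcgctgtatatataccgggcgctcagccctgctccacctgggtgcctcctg
Slc34a1: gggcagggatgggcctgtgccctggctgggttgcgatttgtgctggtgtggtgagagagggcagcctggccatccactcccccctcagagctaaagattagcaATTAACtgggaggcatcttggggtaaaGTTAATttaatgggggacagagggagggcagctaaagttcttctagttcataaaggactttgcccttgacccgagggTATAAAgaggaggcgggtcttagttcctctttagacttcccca
Slc34a3: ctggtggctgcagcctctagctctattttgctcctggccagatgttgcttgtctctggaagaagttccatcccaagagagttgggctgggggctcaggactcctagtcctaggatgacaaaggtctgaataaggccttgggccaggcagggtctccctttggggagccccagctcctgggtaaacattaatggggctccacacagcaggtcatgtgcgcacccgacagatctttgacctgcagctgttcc

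The Slc34a1 window held 1 TATA box, at positions -43 to -38, and 2 HNF1 half-sites, at -147 to -142 on the reverse strand and at -120 to -115 on the forward strand. The Slc34a2 and Slc34a3 windows held none of the 5 motifs in these exact letters. The Slc34a2 window does hold the run tatatata near its end, a TATA-like stretch that the search for TATAAA does not count. The 250 bases were 68.8% G and C for Slc34a2, 53.2% for Slc34a1 and 56.4% for Slc34a3. The Slc34a2 window lies within the annotated span of the gene. Among all 33469 windows of the same length, 12.9% held the TATA box, 6.45% the HNF1 half-site, 30.5% the GC box, 5.59% the E-box and 0.338% the HNF4 motif. Among the other members, the window of Pdzk1 held 1 HNF4 motif, that of Xpr1 held 5 GC boxes (3 of them in a row that overlap by 1 base) and that of Nherf1 held 3. A match describes letters in a window and is not a measured binding site.

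Slc34a2 was measured by 1 probe set (1368168_at). The deposited values were 7.7917, 7.7939, 7.7865 and 7.7885 in HP replicates 1 to 4, against 7.7744, 7.7746, 7.7752 and 7.7721 in control replicates 1 to 4. The 4 HP arrays lay above the 4 control arrays without overlap, and the lowest HP array stood 12.4 thousandths of a log unit above the control mean, while the highest control array stood 1.1 thousandths above it. The mean was 7.7901 ± 0.00327 in the HP group and 7.7741 ± 0.00136 in the control group (SD, n = 4 each). The difference was 0.0161 (SE 0.00177), a standardized difference of 6.41 with an adjusted p of 0.00751 by limma. The 95% interval of the difference was 4.82 to 7.99 in units of the pooled SD, taken as known. By p Slc34a2 ranked 139th of all probe sets tested.

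All 4 HP arrays being above all 4 control arrays was found in 7.09% of all probe sets tested, and among the 11 in Slc34a2 alone. The two-sided exact permutation test over the 70 arrangements of the arrays gave p = 0.029, which is the smallest p that 4 arrays against 4 can give. Leaving out any 1 array kept Slc34a2 past the threshold in 8 of 8 cases. The adjusted p of limma then ran between 0.0116 (without HP replicate 2) and 0.0315 (without control replicate 2), and the standardized difference between 5.90 and 8.60.

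Slc34a1 had 2 probe sets, and the direction was the same in both. In 1370610_at the HP arrays stood at -33.5, -51.3, -32.3 and -26.6 millionths of a log unit from the control mean, against 12.3, -10.5, -11.9 and 10.1 millionths in the control arrays. All 4 HP arrays lay below all 4 control arrays. The difference was -3.59e-05 (SE 8.39e-06), a standardized difference of -3.03 (95% interval -4.61 to -1.44), with an adjusted p of 0.0604 by limma, which did not pass. The two-sided exact permutation test gave p = 0.029. All HP arrays being below all control arrays was found in 5.81% of all probe sets tested, and of the 11 in this probe set alone.

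The other Slc34a1 probe set (1368680_a_at) overlapped between the diets. The HP arrays stood at -2.2, -3.9, -1.0 and -0.9 millionths, against 1.2, -1.2, -0.9 and 0.9 millionths in the control arrays. HP replicates 1 and 2 were below all control arrays, and HP replicates 3 and 4 were close to control replicates 2 and 3. The standardized difference was -1.50 (95% interval -3.16 to 0.15), with an adjusted p of 0.308 by limma and p = 0.14 in the two-sided exact permutation test.

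Slc34a3, measured by 1384838_at, had HP arrays at -89.9, -265, -110 and -68.2 millionths from the control mean, against 44.3, -93.2, -18.2 and 67.1 millionths in the control arrays. HP replicate 2 stood far below the others, and control replicate 2 lay among the remaining HP arrays. The standardized difference was -1.64 (95% interval -3.23 to -0.06), the difference was -0.000133 (SE 5.73e-05), and the adjusted p of limma was 0.247. The two-sided exact permutation test gave p = 0.086.

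The study's own test, rank products over the 16 pairs of HP and control arrays, ranks probe sets by the size of the deposited differences. At an FDR under 0.05 it called 1 of the 11 probe sets higher (background 3.40%) and 2 lower (background 2.30%). The probe set called higher was that of Slc34a2, which stood 14th of 31099 in that direction. Those called lower were Slc34a3, with an FDR of 0.003 and a place of 196th, and the Slc34a1 probe set 1370610_at, with an FDR of 0.017 and a place of 431st. Slc34a1 and Slc34a3 were thus called lower by rank products and not by limma, and Slc34a2 was called higher by both. The largest SDs within diets among the 11 probe sets were those of Slc34a2 (pooled SD 0.00251), Slc34a3 (8.1e-05) and this Slc34a1 probe set (1.19e-05). The other Slc34a1 probe set, with a pooled SD of 1.33e-06, was not called in either direction. The part of these SDs in the calls of rank products was not tested. Beside its arrays, the paper examined kidney sections of further rats by in situ hybridization. It reported more Slc34a2 signal in the HP group, and less Slc34a1 mRNA (data not shown there). The Slc34a2 signal was weak and limited to the cortex in controls, and clear in cortex and medulla in the HP group. The paper also stained the Slc34a2 protein by immunohistochemistry. It reported the protein in the cytosol in controls and in the HP cortex, and at the basolateral membrane of epithelial cells in the HP medulla.

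**Figure D2:**
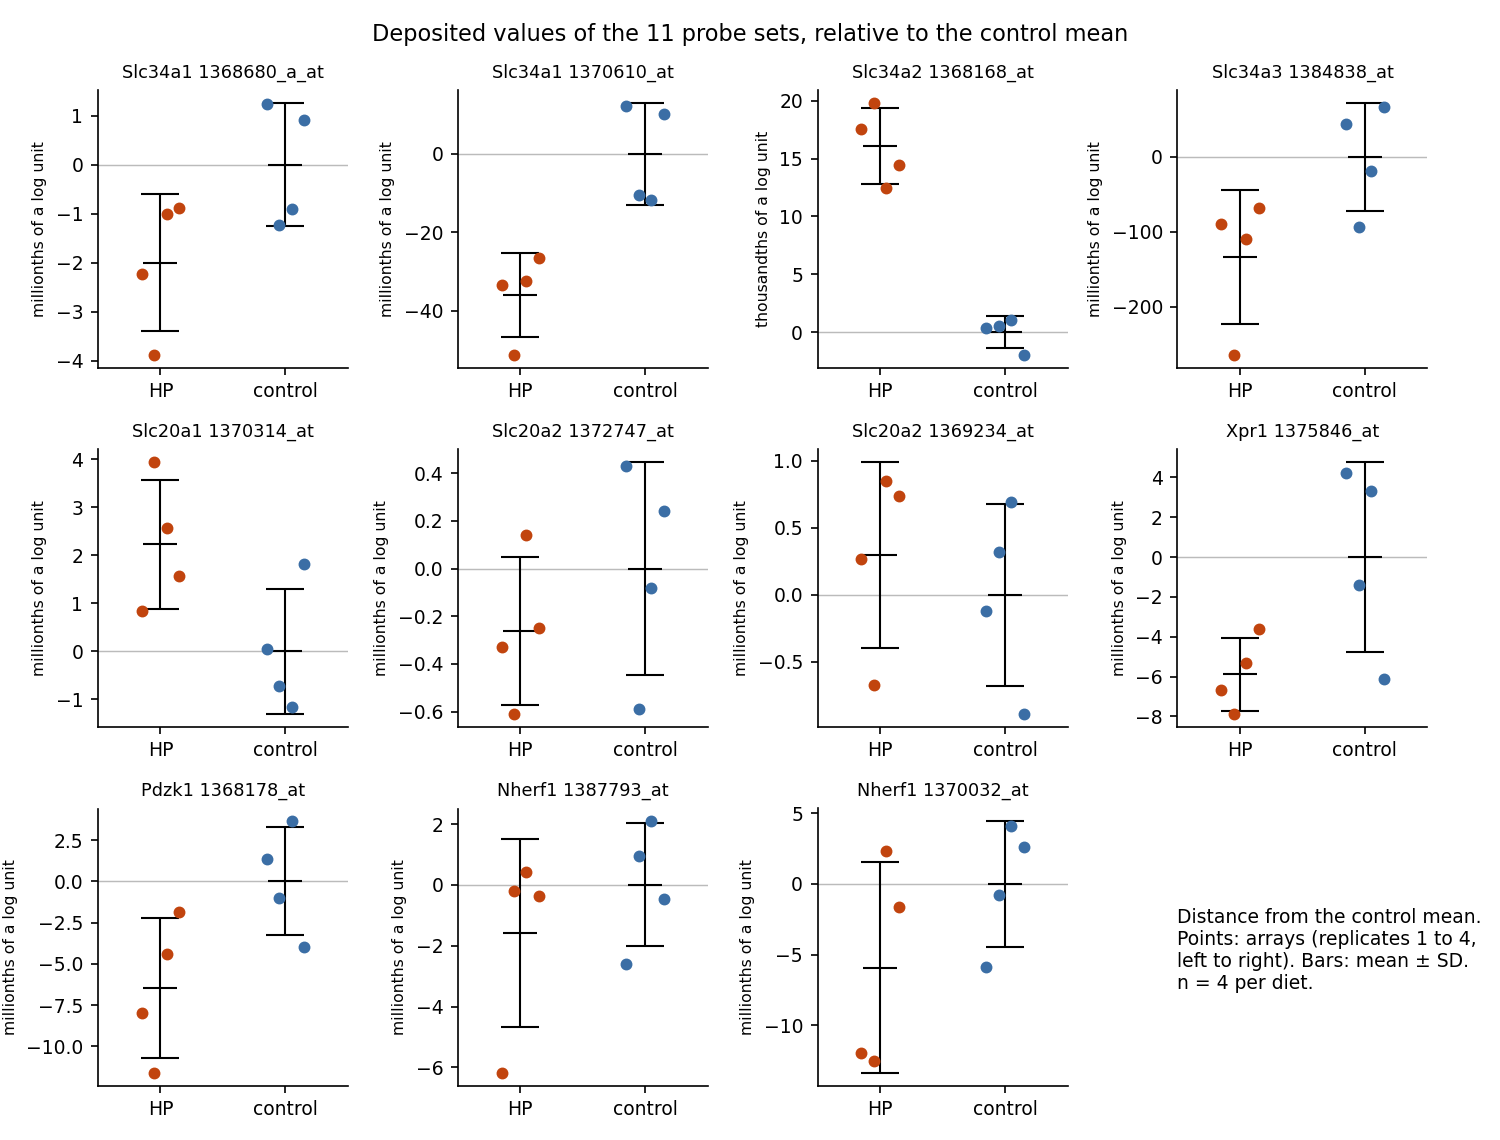
Values of each of the 11 probe sets as the distance of each array from the control mean, in thousandths of a log unit for Slc34a2 and in millionths for the others; points are the arrays (4 HP, 4 control) and bars are the mean ± SD. The groups are apart in Slc34a2 (HP above) and in Slc34a1 1370610_at (HP below) and overlap in the other 9 panels.

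Slc20a1 (PiT-1, 1370314_at) had a higher mean in the HP arrays and did not pass. HP arrays stood at 0.84, 3.94, 2.57 and 1.56 millionths, against 0.05, -0.71, -1.15 and 1.81 millionths in the control arrays. Control replicate 4 lay above HP replicates 1 and 4. Its standardized difference was 1.68 (95% interval 0.03 to 3.34), with an adjusted p of 0.257 by limma and p = 0.086 in the two-sided exact permutation test. Without control replicate 4 it was 2.55 (adjusted p = 0.161).

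Slc20a2 (PiT-2) had probe sets of opposite sign, and the diets overlapped in both. In 1372747_at the HP arrays stood at -0.33, -0.61, 0.14 and -0.25 millionths, against 0.43, -0.59, -0.08 and 0.24 millionths in the control arrays, a standardized difference of -0.69 (95% interval -2.98 to 1.61, adjusted p = 0.779 by limma). In 1369234_at the HP arrays stood at 0.27, -0.67, 0.85 and 0.74 millionths, against -0.12, 0.32, 0.69 and -0.89 millionths in the control arrays, a standardized difference of 0.43 (95% interval -1.40 to 2.27, adjusted p = 0.835 by limma). Leaving out 1 array put 1372747_at between -1.58 (without control replicate 2) and -0.33 (without control replicate 1), and the sign of 1369234_at turned without control replicate 4. These probe sets had the smallest spread of the 11, with pooled SDs of 3.82e-07 and 6.89e-07.

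Xpr1, which lets phosphate out of cells, was measured by 1375846_at. The HP arrays stood at -6.7, -7.9, -5.3 and -3.6 millionths, against 4.2, -1.4, 3.3 and -6.1 millionths in the control arrays. Control replicate 4 lay among the HP arrays, and the other control arrays lay above all of them. The spread was smaller in the HP arrays (SD 1.83e-06, n = 4) than in the control arrays (SD 4.76e-06, n = 4), which was not tested. Xpr1 had a standardized difference of -1.63 (95% interval -3.22 to -0.03), with an adjusted p of 0.254 by limma and p = 0.086 in the two-sided exact permutation test. Without control replicate 4 the standardized difference was -3.32 and the adjusted p was 0.0867, the lowest for Xpr1 when 1 array was left out.

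Among the scaffolds, Pdzk1 (1368178_at), whose PDZ domains bind the tail of Slc34a1 and other brush border carriers, had HP arrays at -8.0, -11.6, -4.4 and -1.9 millionths, against 1.3, -1.0, 3.7 and -4.0 millionths in the control arrays. Here 3 HP arrays were below all control arrays, and HP replicate 4 lay between control replicates 2 and 4. For Pdzk1 the standardized difference was -1.70 (95% interval -3.30 to -0.11), with an adjusted p of 0.235 by limma and p = 0.057 in the two-sided exact permutation test.

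Nherf1, the adaptor that ties brush border carriers to the actin linker ezrin, had both of its probe sets below 0 and overlapping. In 1387793_at the HP arrays stood at -6.2, -0.2, 0.4 and -0.4 millionths, against -2.6, 0.9, 2.1 and -0.5 millionths in the control arrays. HP replicate 1 carried most of the difference here, which was -0.61 in SD units (95% interval -2.21 to 0.99, adjusted p = 0.704 by limma) with it and -0.04 (adjusted p = 0.991) without it. In 1370032_at HP replicates 1 and 2 were low, with HP arrays at -11.9, -12.5, 2.3 and -1.6 millionths, against -5.9, -0.8, 4.1 and 2.6 millionths in the control arrays. The standardized difference was -0.97 (95% interval -2.56 to 0.62), with an adjusted p of 0.507 by limma, and it ran between -1.68 (without HP replicate 3) and -0.65 (without HP replicate 2) when 1 array was left out.

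One array stood out across the members. HP replicate 2 was the lowest of all 8 arrays in 7 of the 11 probe sets (both of Slc34a1, Slc34a3, Slc20a2 1372747_at, Xpr1, Pdzk1 and Nherf1 1370032_at) and the highest in 2 (Slc34a2 and Slc20a1). No other array was the lowest in more than 2 or the highest in more than 4. HP replicate 4 was neither the lowest nor the highest in any. Without HP replicate 2 the standardized difference kept its sign in all 11 probe sets. It was then 7.58 for Slc34a2 (adjusted p = 0.0116), -2.99 for Slc34a1 1370610_at (adjusted p = 0.112), -1.56 for Slc34a3 (adjusted p = 0.36) and -1.49 for Pdzk1 (adjusted p = 0.389), all by limma.

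**Figure D3:**
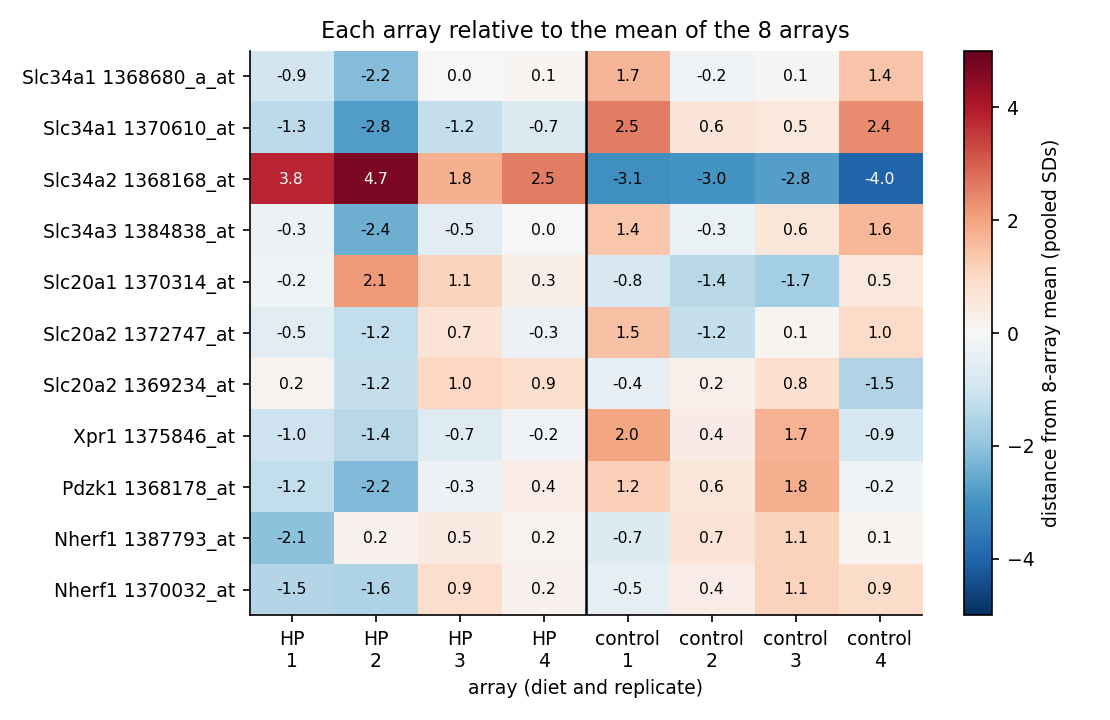
Distance of each array from the mean of the 8 arrays, in pooled SDs within diets, for the 11 probe sets (rows) and the 4 HP and 4 control arrays (columns); red is above and blue below the mean. HP replicate 2 has the lowest value of its row in 7 rows and the highest in those of Slc34a2 and Slc20a1.

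Leaving out 1 array moved no other probe set past the threshold. For Slc34a1 1370610_at the adjusted p was then 0.0872 (without HP replicate 4) to 0.13 (without HP replicate 1), and for Slc34a3 it was 0.2 (without control replicate 2) to 0.403 (without control replicate 1). The sign held in 8 of 8 cases for 10 of the 11 probe sets. The exception was Slc20a2 1369234_at, where the standardized difference was -0.00014 without control replicate 4.

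**Figure D4:**
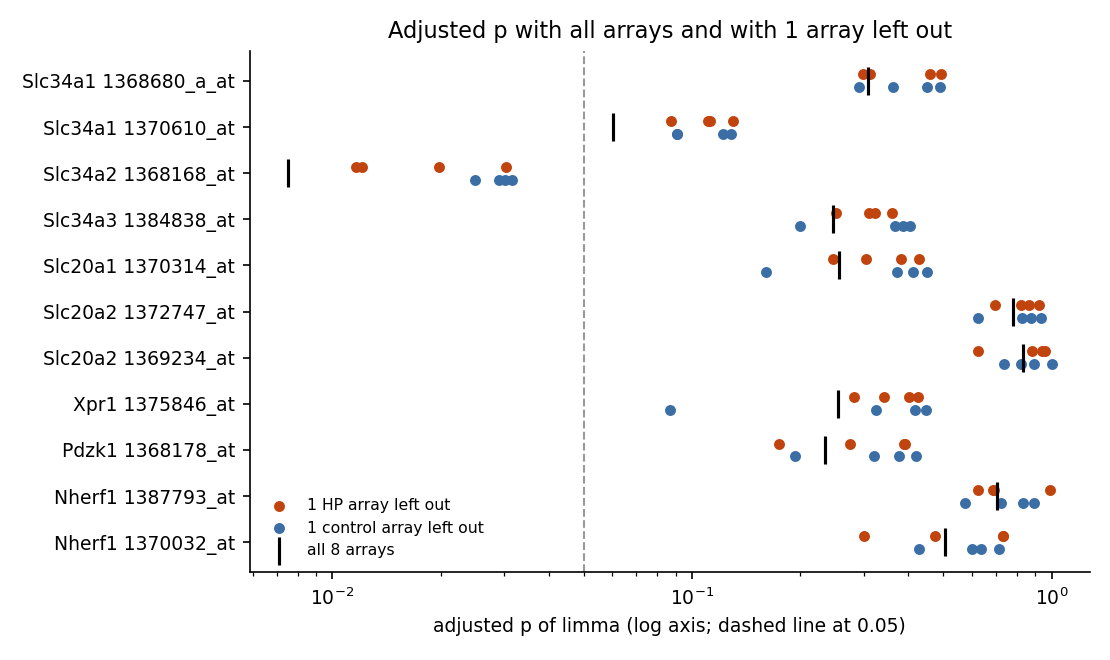
Adjusted p of limma (log axis) for each of the 11 probe sets with all 8 arrays (black bars) and with 1 HP or 1 control array left out (points), with a dashed line at 0.05. The 8 points of Slc34a2 lie between 0.0116 and 0.0315, and no point of another probe set is below 0.05.

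The kidney identity of the samples and the cells they held were read from marker lists. The deposited means, the same to 2 decimals in both groups, were 13.52 for Umod (uromodulin of the thick ascending limb), 12.62 for Lrp2 (megalin of the proximal tubule), 12.20 for Slc12a1 (the cotransporter of the thick ascending limb) and 11.29 for Aqp2 (the water channel of the collecting duct). The podocyte gene Nphs1 had means of 8.19 and 6.75 in its probe sets, again the same to 2 decimals in both groups. Equal means at 2 decimals do not show that a marker was unchanged, because the deposited differences are so small. Col1a1 1370864_at had a mean of 8.01 in both groups and was called higher (standardized difference 5.94, adjusted p = 0.00933 by limma). The Nphs1 probe sets stood at -1.09 and -2.57 in SD units and did not pass (adjusted p = 0.446 and 0.107 by limma). The arrays have no zero or detection call in these values, so absence of a marker cannot be read from them.

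The proximal tubule is the site of Slc34a1, Slc34a3 and Pdzk1, and its 12 marker genes gave 17 probe sets. None passed in either direction, 15 had a standardized difference below 0 and 2 above, and the median was -1.42, against -0.21 over all probe sets tested. Furthest below 0 were Slc5a1 (the glucose carrier SGLT1, -3.52, adjusted p = 0.172), Miox (the oxygenase of myo-inositol, -3.31, adjusted p = 0.307) and Slc13a3 (a dicarboxylate carrier, -3.04, adjusted p = 0.0604). HP replicate 2 was the lowest of the 8 arrays in 10 of these 17 probe sets, as it was in 7 of the 11 described here. The summed value of the list was 183.0324 to 183.0333 in the HP arrays and 183.0329 to 183.0334 in the control arrays. This sum follows mainly Slc4a4 1369756_a_at, whose SE (0.000194) was the largest of the list. The next was that of Slc22a8 1385005_at (3.16e-05), so the sum does not describe the list evenly. The part of the proximal tubule markers in the lower values of Slc34a1, Slc34a3 and Pdzk1 was not tested.

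Markers of tubular injury moved with Slc34a2. Of 8 probe sets for 7 measured genes of that list, 5 rose, none fell and 3 did not pass, with a median standardized difference of 4.41, and HP replicate 2 was the highest array in 8 of 8. Their summed value was 66.9602 to 67.2190 in the HP arrays and 66.2433 to 66.3494 in the control arrays. This sum moved almost wholly with Havcr1 (a deposited difference of 0.423) and Spp1, or osteopontin (0.333), while each of the other 6 probe sets differed by 0.0203 or less. Of 8 macrophage probe sets 5 rose (58.9814 to 58.9852 in the HP arrays and 58.9766 to 58.9786 in the control arrays), and of 8 fibroblast probe sets 5 rose (69.5577 to 69.5600 in the HP arrays and 69.5483 to 69.5508 in the control arrays). None of either list passed in the lower direction. Of the macrophage probe sets 2 stood below 0, Cd163 (-0.26, adjusted p = 0.898 by limma) and Aif1 1369489_at (-2.26, adjusted p = 0.135). In this Aif1 probe set all HP arrays lay below all control arrays, as in 5.81% of all probe sets tested, while Aif1 1368558_s_at rose (6.13, adjusted p = 0.0086). Of 5 probe sets of other leukocytes 2 rose, and both were of Ptprc. Cd3e did not pass in 1379791_at (3.09, adjusted p = 0.0573 by limma) or in 1389997_at (1.59, adjusted p = 0.262). Cd79b stood below 0 and did not pass (-1.31, adjusted p = 0.406). The sum of the list was 34.7906 to 34.7911 in the HP arrays and 34.7893 to 34.7896 in the control arrays. These sums too lean on the probe sets with the largest deposited differences. They were Col3a1 (0.00492) among fibroblasts, C1qa (0.00189) among macrophages and Ptprc 1390798_at (0.00116) among other leukocytes. Of 6 collecting duct probe sets Scnn1b, a subunit of the epithelial sodium channel, rose (standardized difference 3.53, adjusted p = 0.0442 by limma), and 5 did not pass. The list had 3 probe sets above 0 and 3 below, with a median of -0.31. Furthest below 0 was Atp6v1b1 (-2.22, adjusted p = 0.135 by limma). Whether the call of Scnn1b survives the removal of 1 array was not tested. The lists of the thick ascending limb (4 probe sets), the distal convoluted tubule (3), podocytes (10) and endothelium (5) had none that passed. The part of these lists in the rise of Slc34a2 was not tested.

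The genes whose values were most like those of Slc34a2 over the 8 arrays were Havcr1, known as kidney injury molecule 1 (Pearson correlation 0.9974), Rnh1, a ribonuclease inhibitor (0.9967), and Col4a1, a collagen IV chain of basement membranes (0.9966). After subtraction of the diet means these correlations were 0.97, 0.98 and 0.99. For Slc34a1 (1368680_a_at) the closest were Slc25a15, the ornithine carrier of mitochondria (0.9884), Tex2 (0.9797) and Spink1, a secreted trypsin inhibitor (0.9779). For Slc34a3 they were Lrrc19 (0.9914), Glyat, a glycine acyltransferase of mitochondria (0.9747), and Timp3, an inhibitor of metalloproteinases (0.9722). These are the highest values among all probe sets of 1 other gene over 8 arrays that share 2 diets, and are given as a description of likeness only.

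Other carriers of phosphate and its relatives were described from a list of 6 genes with 7 probe sets. Of these, 1 rose, none fell and 6 did not pass (median standardized difference 0.18). Ankh, which exports pyrophosphate or its precursor ATP, passed in 1393439_a_at (standardized difference 3.26, adjusted p = 0.049) and not in 1369249_at (2.41, adjusted p = 0.111). The call of Ankh did not survive the removal of 1 array in 7 of 8 cases (highest adjusted p = 0.125, without HP replicate 1). Removal of 1 array left 339 to 672 of all probe sets called higher, against 915 with all arrays. The call was also lost with trend and robust moderation (adjusted p = 0.0505), no moderation (0.0812) and array weights (0.0515). The sign of Ankh turned after median centring and after quantile normalization. Median centring put the median difference of all probe sets at -6.13e-05, against a deposited 1.71e-05 for Ankh, so that turn follows from the shift. Quantile normalization called 7712 of all probe sets lower. Slc17a2 and Slc17a4, carriers of the type I family of sodium-phosphate cotransporters, did not pass. Slc17a2 stood at -2.65 (adjusted p = 0.0884) and Slc17a4 at 2.17 (adjusted p = 0.141) in SD units. All HP arrays lay below all control arrays in Slc17a2 (5.81% of all probe sets tested) and above them in Slc17a4 (7.09% of all).

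Partners of the scaffolds at the brush border, 9 genes with 13 probe sets, gave 2 that fell, none that rose and 11 that did not pass, with a median standardized difference of -0.80. Slc9a3 (NHE3), the sodium-proton exchanger held by Nherf1 and Pdzk1, fell with a standardized difference of -4.04 (adjusted p = 0.0273). Slc9a3r2 (Nherf2), the nearest relative of Nherf1, fell in 1387976_at (-3.38, adjusted p = 0.0446) and did not pass in 1388831_at (-2.35, adjusted p = 0.118). Each of these calls was lost in 7 of 8 cases when 1 array was removed. Over all probe sets tested, removal of 1 array left 79 to 219 called lower, against 350 with all arrays. The highest adjusted p was 0.0825 for Slc9a3 (without control replicate 3) and 0.112 for Slc9a3r2 (without HP replicate 1). Both calls were also lost with no moderation (adjusted p = 0.0526 for Slc9a3 and 0.0751 for Slc9a3r2) and after median centring (standardized differences of -2.73 for Slc9a3 and -1.13 for Slc9a3r2), and that of Slc9a3r2 with array weights (0.0503). Median centring left only 78 of all probe sets called higher and 19 called lower. Its calls are not read as a test, for the reason given with the dependence on the processing below. Slc9a3r2 stood at -7.14 without control replicate 3 (adjusted p = 0.0269). Pdzk1ip1 (MAP17), a membrane partner of Pdzk1, had a standardized difference of -1.33 (adjusted p = 0.35), and Ezr (ezrin) one of -0.35 (adjusted p = 0.852).

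Of the hormone axis that controls the Slc34 carriers, 12 of 13 listed genes were measured by 17 probe sets, and none passed in either direction (limma, median standardized difference -0.05). The smallest p values were those of Fgfr3, a receptor of FGF23 (1369373_at, -2.47, adjusted p = 0.104), Pth1r, the receptor of parathyroid hormone (1370259_a_at, -2.45, adjusted p = 0.106), and Kl, the FGF23 coreceptor klotho (-1.77, adjusted p = 0.217). All HP arrays lay below all control arrays in these 3 probe sets, as in 5.81% of all probe sets tested. They were picked from the list by their p, which favours such a separation. The second probe set of Fgfr3 stood at 0.44 (adjusted p = 0.911) and that of Pth1r at -1.59 (adjusted p = 0.262).

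Enzymes that make inositol pyrophosphates, the signals that open Xpr1, and the Xpr1 partner Kidins220 were measured by 6 probe sets for 4 of 6 genes, and none passed in either direction (limma, median standardized difference 0.28). Ip6k2, an inositol hexakisphosphate kinase, had 1.90 in 1389005_at (adjusted p = 0.195) and 0.46 in 1387063_at (adjusted p = 0.799). Kidins220 had 1.25 (adjusted p = 0.391) and -0.70 (adjusted p = 0.649), and Ppip5k1 had -1.93 (adjusted p = 0.648).

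**Figure D5:**
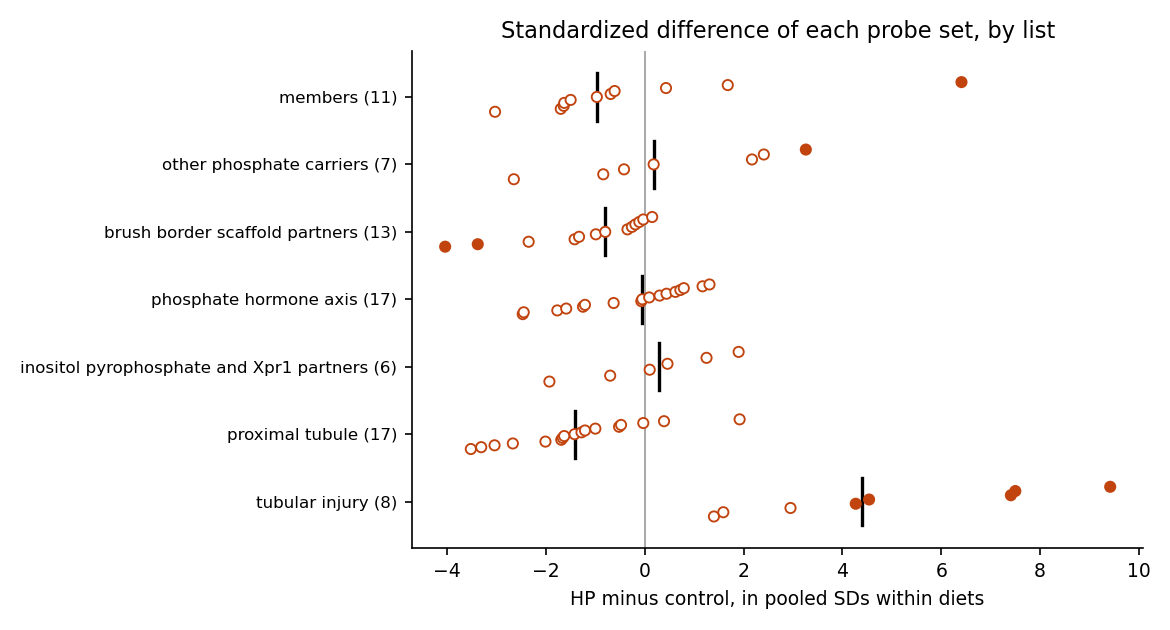
Standardized difference (HP minus control, in pooled SDs within diets) of each probe set in the 11 described here and in 6 lists of related genes and markers, with the number of probe sets in brackets; filled points are those past the threshold of 0.05 on the adjusted p, and black bars are medians. The medians are -0.97 for the 11, -0.80 for the scaffold partners, -1.42 for the proximal tubule and 4.41 for tubular injury.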

How the data were processed

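Kidney RNA was hybridized to Affymetrix Rat Genome arrays, 4 for the HP diet and 4 for the control diet. The deposited values, taken as log2 (base not given), were made by the authors from the probe intensities with DFW in R. Depth does not apply to arrays. The 57 Affymetrix controls were removed, and 31042 probe sets were tested in limma 3.58.1 under R 4.3.3 (eBayes, whose prior had 0.772 degrees of freedom), and p values were adjusted by Benjamini-Hochberg over all of them. Genes were assigned with the platform annotation: 20826 probe sets had 1 symbol, 436 several and 9780 none. Exact permutation tests used all 70 arrangements. Rank products used 1000 permutations, following the study's methods, over all 31099 probe sets (Python 3.11.15, numpy 2.4.6). The code was tested on simulated data.

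All members were named. In related lists, probe sets that passed were named and filled up to 3 by p, with a few more given for context after their values were seen, and for Slc34a1, Slc34a2 and Slc34a3 (probe set of highest mean) the 3 most correlated genes were named. Members, lists and alternatives were chosen with earlier results of these data known. Alternatives were trend and robust moderation, no moderation, array weights, a replicate block, quantile normalization, median centring, a filter on the lowest 25% of probe set means, 1 probe set per gene, rank products and removal of each array.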

Additional observations from a re-analysis of the deposited data

Results flagged for a closer look

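In the Nherf1 probe set 1387793_at, HP replicate 1 stood apart below the other HP arrays. Its gap to the nearest of them was 0.880 of the range of the 4 HP arrays, above Dixon's critical value at the 95% level for 4 samples. It was the only flag among the 22 groups of 4 arrays checked, where chance flags about 1 in 20.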

How the results depend on the processing

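The rise of Slc34a2 kept its direction under every alternative run, with a standardized difference of 5.90 to 8.60 when 1 array was left out. It also kept its call in all of them, but the call after median centring cannot be counted. The adjusted p of limma was then 1.49e-165 at a standardized difference of 6.43, against 0.0204 at 6.41 with no moderation. The spread of 4 arrays per diet cannot give so small a p. Calls kept or lost after median centring are thus not read for any probe set. Slc34a1 1370610_at and Slc34a3 were not called under any limma alternative that gave a value, while rank products called both lower (FDR 0.017 and 0.003), so that 2 members were called lower. Slc34a1 1370610_at shrank from -3.03 to -1.22 after quantile normalization (adjusted p = 0.279) and to -1.32 after median centring. Median centring also moved Slc34a1 1368680_a_at (-0.96), Xpr1 (-1.04), Pdzk1 (-1.04), Nherf1 1387793_at (-0.99) and Slc9a3r2 (-1.13) by over 1.5 times, and quantile normalization Slc20a2 1372747_at (-1.50) and Slc9a3r2 (-13.06). After quantile normalization 1 member was called lower, Slc20a2 1369234_at, whose direction turned (-10.28, against 0.43). This setting left no spread within diets in 15258 probe sets, 6 of the 11 among them, which then had no value, and it put the median difference of all probe sets at -8.89 millionths of a log unit. Median centring put that median at -61.3 millionths, further from 0 than the difference of any member but Slc34a2 and Slc34a3. Directions also turned after median centring in Slc20a1 (-0.91), Slc20a2 1369234_at (-0.93) and Ankh (-0.70), after quantile normalization in Xpr1 (1.28) and Ankh (-3.93), and without control replicate 4 in Slc20a2 1369234_at (-0.00014, up to 1.10 without another array). Alternatives for Ankh, Slc9a3 and Slc9a3r2 were chosen after seeing the data. The turns after median centring follow from the shift of that median. The deposited differences were smaller, at 2.23e-06 for Slc20a1, 2.98e-07 for Slc20a2 1369234_at and 1.71e-05 for Ankh. The cause of the other changes was not tested.

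Nothing in the labels pairs rats across diets by their replicate number. The deviations of same-numbered arrays correlated by 0.00 to 0.12, and 5 of 8 arrays correlated best with their own number. With the replicate block limma called 254 probe sets higher and 115 lower, against 915 and 350 without it. Of the 11 members, Slc34a2 was called (6.75, adjusted p = 0.0491) and none was called lower. The block moved Slc34a3 to -5.80 (adjusted p = 0.0588, against -1.64 without it), Slc34a1 1370610_at to -4.64 (0.0765), Nherf1 1370032_at to -1.98 (0.234) and Nherf1 1387793_at to -1.47 (0.379), and called none of them. Of the related genes, Slc9a3 (adjusted p = 0.0835), Slc9a3r2 (0.131) and Ankh (0.173) were not called. The number of arrays limits the precision.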
